A study of Mus musculus with 6 samples.

Results

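The genes described here are 7 MHC class I heavy chains (H2-K1, H2-D1, H2-Q4, H2-T22, H2-T23, H2-T24 and H2-M3), their light chain B2m, and Nlrc5, which encodes an activator of class I transcription. They were found by gene symbol, 9 genes of the 55573 rows in the deposited table. The data are RNA-seq of Hepa1-6, a cell line from a mouse liver cancer, in 6 libraries: 3 labelled Matr3 knockout (KO), edited with CRISPR/Cas9, and 3 labelled wild type (WT). Both groups were grown in DMEM with serum, and no other treatment is named. Whether replicates were separate cultures, or the knockout 1 clone, is not stated, and the p-values therefore cover the spread among these 6 libraries alone, which may be technical. KO library 2 and WT library 1 stood apart from the other libraries of their groups: the first in how its deviations ran with the GC content of genes, the second with 23440 genes detected, against 20450 to 21217 in the other libraries. The calls of the members and the counts of most gene lists around them are given with and without both. Most markers of hepatocytes were nearly absent, which limits these cells as a model of liver. The identity of the line was not tested. Alb and Hnf4a each had 1 count over the KO libraries and 0 over the WT libraries. Only 4 of 13 hepatocyte and hepatoma markers passed the expression filter: Afp, Apoa2, Foxa1 and Foxa2.

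MHC class I molecules display peptides on the cell surface. A heavy chain folds with beta-2-microglobulin, the product of B2m, and is loaded with peptide in the endoplasmic reticulum. The classical chains H2-K1 and H2-D1 present peptides to CD8 T cells, while the nonclassical chains have narrower tasks: H2-T23 encodes Qa-1, which shows a peptide from the signal sequence of classical chains to inhibitory receptors of natural killer cells, H2-T22 is a ligand of some gamma-delta T cells, and H2-M3 presents peptides that begin with formylmethionine. NLRC5 binds no DNA by itself and is held at class I promoters by RFX, CREB/ATF and NF-Y proteins, which bind the X1, X2 and Y boxes of a promoter element named SXY. Interferons and NF-kB act on the same promoters through an interferon-stimulated response element (ISRE) and a kB site. Many tumours lower class I expression, by which they escape T cells.

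Proximal promoters of the 4 members called below that have a sequence are set beside that of H2-K1. They were thus picked by the RNA results, and those of H2-D1 and H2-Q4, which were not called, are not printed. Each line gives the 250 bases before the RefSeq transcription start on build GRCm38.p6, 5′ to 3′ on the strand of the gene, with capitals on every match to the motifs listed after them. The windows are chr17:36032702-36032951 (minus strand), chr17:36042743-36042992 (minus), chr17:37269984-37270233 (plus), chr2:122147437-122147686 (plus) and chr17:34000348-34000597 (minus).
H2-T23: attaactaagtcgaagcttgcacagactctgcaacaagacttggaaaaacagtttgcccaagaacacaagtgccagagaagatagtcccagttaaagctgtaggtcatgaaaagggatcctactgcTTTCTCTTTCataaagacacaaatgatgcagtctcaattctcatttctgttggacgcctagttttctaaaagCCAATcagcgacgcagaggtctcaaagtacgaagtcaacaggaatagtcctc
H2-T22: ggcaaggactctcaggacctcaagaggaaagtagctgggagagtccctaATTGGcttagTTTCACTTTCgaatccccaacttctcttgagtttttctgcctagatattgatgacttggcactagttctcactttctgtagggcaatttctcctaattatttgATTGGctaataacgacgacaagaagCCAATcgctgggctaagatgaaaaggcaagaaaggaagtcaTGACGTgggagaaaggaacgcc
H2-M3: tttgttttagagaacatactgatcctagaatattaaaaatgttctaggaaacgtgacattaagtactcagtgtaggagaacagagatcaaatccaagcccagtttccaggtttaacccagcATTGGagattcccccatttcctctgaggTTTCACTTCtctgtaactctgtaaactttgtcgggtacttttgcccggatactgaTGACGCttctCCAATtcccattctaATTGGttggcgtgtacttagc
B2m: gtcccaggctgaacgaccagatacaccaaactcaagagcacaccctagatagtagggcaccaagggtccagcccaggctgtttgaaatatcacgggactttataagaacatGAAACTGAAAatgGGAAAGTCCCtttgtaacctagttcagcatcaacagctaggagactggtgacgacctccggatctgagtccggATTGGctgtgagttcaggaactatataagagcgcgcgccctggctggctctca
H2-K1: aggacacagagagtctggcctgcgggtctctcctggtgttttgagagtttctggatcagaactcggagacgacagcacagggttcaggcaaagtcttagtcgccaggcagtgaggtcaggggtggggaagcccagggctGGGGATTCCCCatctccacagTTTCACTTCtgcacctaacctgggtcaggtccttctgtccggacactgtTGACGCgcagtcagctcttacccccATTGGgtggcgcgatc

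The motifs, searched on both strands, were GAAA, any 2 bases and GAAA (the long ISRE form), GAANTGAAA (the class I ISRE form), ATTGG for the Y box, TGACGC for the X2 box, the CRE-like TGACGT, a palindromic kB motif and a looser kB motif. A window with a RefSeq start, from 250 bases before it to 50 after, was found for 7 of the 9 members. The H2-K1 window held, in this order towards the gene, the palindromic kB motif, the ISRE form TTTCACTTC, TGACGC and ATTGG. H2-D1 held the same 4 motifs in the same order. Of 32817 windows of all genes, 0.0305% held the palindromic kB motif, and among the 7 members H2-K1 and H2-D1 held it. Around the start of H2-T23 neither TGACGC nor a kB match was found, and its matches were TTTCTCTTTC and a CCAAT. The long ISRE form was present in 3 of the 7 members (H2-T22, H2-T23 and B2m) and in 3.43% of all windows, GAANTGAAA in the other 4 and in 1.83%, TGACGC in 4 and in 7.39%, and ATTGG in all 7 and in 37.4%. In H2-Q4 the TGACGC match lay past the start, at bases 30 to 35. TGACGT was present in 2 members (H2-Q4 and H2-T22) and in 7.51%, and the looser kB motif in 2 (H2-Q4 and B2m) and in 1.63%. The distance of a match from the start depends on the annotated start, and a match is a string of letters, not a proven site.

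Levels between genes were compared as FPKM, the authors' count scaled to library size and gene length. B2m was the highest member, at 467 ± 31.02 FPKM in KO and 641 ± 61.1 FPKM in WT libraries (SD, n = 3 each), above 99.2% of the tested genes by its mean over all libraries. H2-K1 (168 ± 14.6 FPKM in KO, 160 ± 4.45 in WT) and H2-D1 (147 ± 19.6 in KO, 149 ± 6.18 in WT) came next, and their ranges overlapped in KO libraries but not in WT libraries. The nonclassical chains lay far below these. In KO libraries they ran from H2-T22 (19.5 FPKM) through H2-M3 (14.3), H2-Q4 (10.3) and H2-T23 (10.103) to H2-T24 (2.77). In WT libraries the order of the genes was the same, with H2-T22 at 11.9, H2-M3 at 10.9, H2-Q4 at 9.27, H2-T23 at 3.97 and H2-T24 at 3.13 FPKM. H2-Q4 and H2-T23 overlapped in range in KO libraries and H2-T22 and H2-M3 in WT libraries; all other neighbours in these orders were apart. Nlrc5 was lowest, at 0.411 ± 0.104 FPKM in KO and 1.49 ± 0.328 FPKM in WT libraries.

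**Figure D1:**
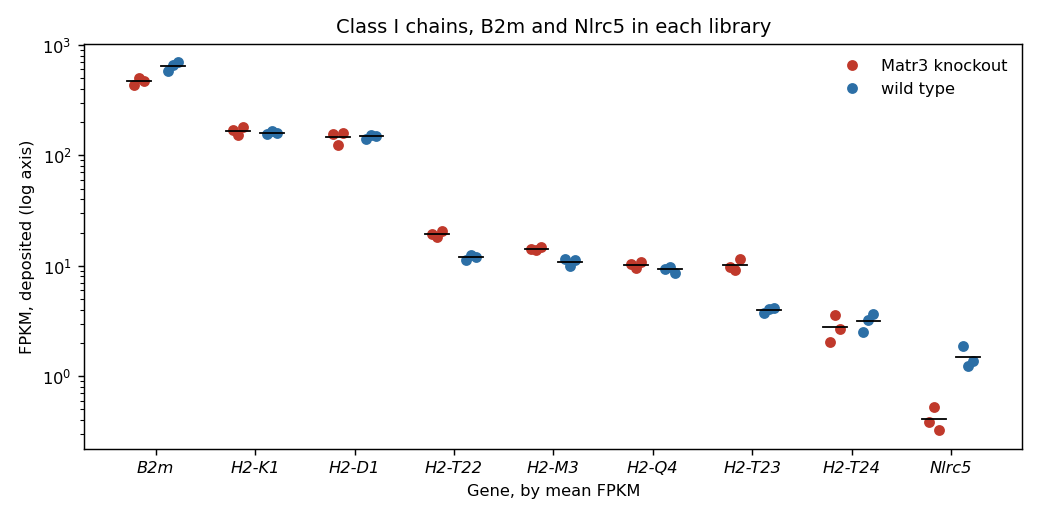
Deposited FPKM (log axis) of the 9 genes in each library, KO left of WT for each gene; points are libraries and lines are means of 3. H2-T23, H2-T22 and H2-M3 lie higher in KO libraries, B2m and Nlrc5 lower, and H2-K1, H2-D1, H2-Q4 and H2-T24 overlap between the groups.

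Between KO and WT cells, 3 nonclassical heavy chains rose, B2m and Nlrc5 fell, and neither classical chain passed the test. All 9 members passed the expression filter. Of the 9, 3 were called higher, against 7.69% of all 14842 tested genes, and 2 were called lower, against 7.48% (edgeR's quasi-likelihood test with a Benjamini-Hochberg adjusted p below 0.05 over all tested genes). In either direction 15.2% of tested genes were called. The members were chosen with earlier results of these data known, so these shares are no test of the set. The groups did not overlap for the 5 called members, as for 36.6% of tested genes. The members' median log2 fold change was 0.06, beside -0.02 for all tested genes. Changes are given on the CPM scale, counts scaled to library size with TMM factors.

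H2-T23 (ENSMUSG00000067212; chromosome 17, 36340665 to 36343747, minus strand, as placed in the table) rose most. It was at 28.4, 26.1 and 33.0 CPM in the KO libraries, against 10.97, 11.6 and 11.99 CPM in the WT libraries. Every KO library was thus above every WT library by more than the spread within either group. The log2 fold change was 1.34 (SE 0.121, edgeR quasi-likelihood adjusted p = 0.000747), a 2.53-fold higher level. H2-T22 (ENSMUSG00000056116; chromosome 17, 36348020 to 36353639, minus strand), its neighbour, was at 66.6, 61.8 and 70.8 CPM in the KO libraries, against 39.5, 42.8 and 40.9 CPM in the WT libraries. The groups again did not overlap, and the log2 fold change was 0.69 (SE 0.0885, edgeR quasi-likelihood adjusted p = 0.00276). Both calls held under all 16 other analyses run, with log2 fold changes from 1.16 to 1.42 for H2-T23 and from 0.63 to 0.75 for H2-T22. They were 1.38 and 0.715 without KO library 2 and WT library 1.

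H2-M3 (ENSMUSG00000016206; chromosome 17, 37581111 to 37585375, plus strand) rose less, by 1.31-fold. Its values were 20.7, 19.8 and 21.2 CPM in the KO libraries, against 16.8, 14.3 and 16.2 CPM in the WT libraries. The log2 fold change of 0.38 (SE 0.108) lay just inside the threshold (edgeR quasi-likelihood adjusted p = 0.0470). Leaving out KO library 1 or 3 or WT library 2 or 3 ended the call (adjusted p between 0.123 and 0.158, edgeR quasi-likelihood test), and with the per-library trend on GC content and length removed it was also lost (log2 fold change 0.30, adjusted p = 0.0633), as it was with no filter on low counts (0.0587). The call held without KO library 2 and WT library 1 (0.46, edgeR quasi-likelihood adjusted p = 0.00173), in a fit that called 7556 genes, against 2252 with every library.

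The classical chains differed by less than the spread between libraries. H2-K1 (ENSMUSG00000061232; chromosome 17, 34214991 to 34219321, minus strand) measured 497, 446 and 534 CPM in the KO libraries, against 469, 485 and 465 CPM in the WT libraries. H2-D1 (ENSMUSG00000073411; chromosome 17, 35481706 to 35486475, plus strand) measured 405, 318 and 411 CPM in the KO libraries, against 373, 396 and 389 CPM in the WT libraries. For both genes KO library 2 was the lowest of all 6 libraries, and the other KO libraries were the highest. The log2 fold change was 0.06 for H2-K1 (95% interval -0.16 to 0.28) and -0.03 for H2-D1 (-0.29 to 0.23), with edgeR quasi-likelihood adjusted p = 0.715 and 0.888. Without KO library 2 it was 0.13 for H2-K1 and 0.09 for H2-D1, still short of the threshold (edgeR quasi-likelihood adjusted p = 0.264 and 0.442). Without KO library 2 and WT library 1 it was 0.12 and 0.06 (edgeR quasi-likelihood adjusted p = 0.0595 and 0.304).

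H2-Q4 and H2-T24 did not pass either. H2-Q4 (ENSMUSG00000035929; chromosome 17, 35598593 to 35604266, plus strand) measured 27.0, 24.8 and 28.1 CPM in the KO libraries, against 25.0, 25.4 and 22.4 CPM in the WT libraries (log2 fold change 0.14, 95% interval -0.10 to 0.37). H2-T24 (ENSMUSG00000053835; chromosome 17, 36316587 to 36331452, minus strand) measured 4.48, 7.79 and 5.84 CPM in the KO libraries, against 5.60, 7.04 and 7.99 CPM in the WT libraries (-0.19, 95% interval -0.72 to 0.34). Without KO library 2 and WT library 1 together, H2-T24 was lower in KO (log2 fold change -0.53, edgeR quasi-likelihood adjusted p = 0.0185). In the same fit H2-Q4 was at 0.21 and did not pass (edgeR quasi-likelihood adjusted p = 0.0627). That fit called 7556 genes in all, against 2252 with every library.

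B2m (ENSMUSG00000060802; chromosome 2, 121978167 to 121983564, plus strand) fell although no heavy chain among the members was called lower. It was at 376, 425 and 403 CPM in the KO libraries, against 503, 563 and 597 CPM in the WT libraries. The highest KO library stayed under the lowest WT library, and the log2 fold change was -0.47 (SE 0.0999, edgeR quasi-likelihood adjusted p = 0.0186), a 1.38-fold lower level. B2m transcripts have a GC content of 41.2%, against a median of 49.6% over tested genes. Across genes, which are not independent, the deviation of KO libraries 1 and 3 correlated with GC content at 0.26 and that of KO library 2 at -0.27, against -0.03, -0.03 and -0.16 in the WT libraries. With the trends on GC content and gene length removed together, the log2 fold change of B2m was -0.30 and the call ended (edgeR quasi-likelihood adjusted p = 0.0639). It also ended without KO library 1 or 3 or WT library 2 or 3 (adjusted p from 0.0812 to 0.130) and by limma on log2(FPKM + 1) (0.0623). It held without KO library 2 and WT library 1 (-0.57, edgeR quasi-likelihood adjusted p = 2.6e-06). That fit called 7556 genes in all, against 2252 with every library.

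Nlrc5 (ENSMUSG00000074151; chromosome 8, 95160984 to 95253900, plus strand) fell most of the members. It had 76, 139 and 78 counts in the KO libraries, against 346, 281 and 308 in the WT libraries. In scaled units these were 3.27, 4.44 and 2.74 CPM in the KO libraries and 16.1, 10.5 and 11.7 CPM in the WT libraries. KO library 2 was highest among the KO libraries and WT library 1 highest among the WT libraries, and the groups were well apart. The log2 fold change was -1.87 (SE 0.234, edgeR quasi-likelihood adjusted p = 0.00262), a 3.65-fold lower level. The call held under all 16 other analyses, with log2 fold changes from -2.08 to -1.65 on counts and -0.82 on log2(FPKM + 1), a scale that compresses genes near or below 1 FPKM. Without KO library 2 and WT library 1 the log2 fold change was -1.89. In the authors' deposited table the log2 fold change is -1.51 for Nlrc5, -0.43 for B2m, 1.23 for H2-T23, 0.67 for H2-T22 and 0.37 for H2-M3, with an adjusted p of 0.0548 for H2-M3.

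**Figure D2:**
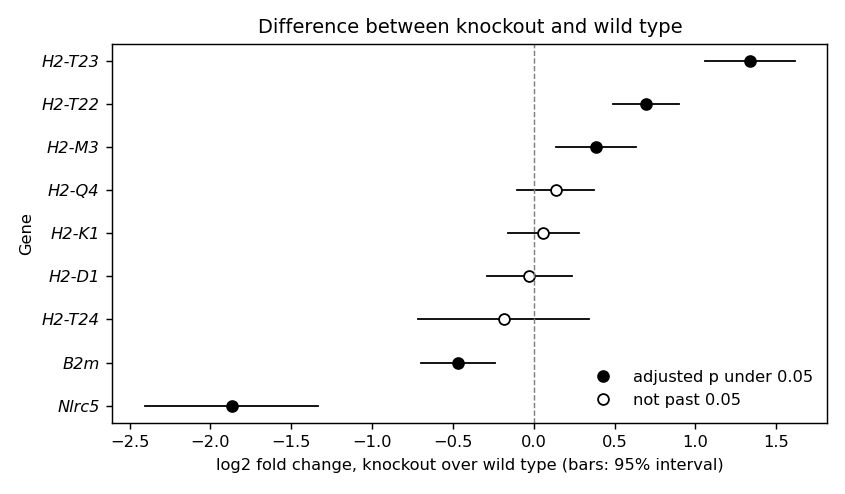
Log2 fold change, KO over WT, of the 9 genes with 95% intervals from the edgeR fit; filled points passed an adjusted p of 0.05. The intervals of H2-T23, H2-T22 and H2-M3 lie above 0, those of B2m and Nlrc5 below 0, and those of the other 4 members cross 0.

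The make-up of the class I transcripts differed between the groups in every library, as ratios of FPKM within a library show. These ratios describe the members and were not tested. The 7 heavy chains summed to 0.875, 0.666 and 0.856 times the B2m level in the KO libraries, against 0.587, 0.547 and 0.502 times in the WT libraries. H2-K1 and H2-D1 made up 84.6 ± 0.919% of the heavy chain FPKM in KO and 88.7 ± 0.211% in WT libraries (SD, n = 3 each). H2-T23 made up 2.72 ± 0.138% in KO and 1.14 ± 0.0443% in WT libraries. Set against H2-D1, H2-T23 stood at 6.26%, 7.32% and 7.16% in the KO libraries, against 2.63%, 2.62% and 2.75% in the WT libraries. As in any bulk sample, fewer cells of a kind and less RNA per cell cannot be told apart.

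Some class I genes share long stretches of sequence, and the sources used here do not say how reads that fit several genes were counted. Of all 50-base words in the GENCODE M21 transcripts of H2-T22, 53.5% also occur, on either strand, in transcripts of another gene, 31.3% in H2-T10. The share was 36.4% for H2-Q4, 14.5% for H2-T23, 12.8% for H2-D1, 9.63% for H2-K1, 3.17% for H2-T24, 0.576% for H2-M3, 0.339% for Nlrc5 and 0 for B2m. Of the called members, H2-T22 had the highest shared share. Summed with H2-T10, it was at 67.9 ± 4.37 CPM in KO and 44.1 ± 2.22 CPM in WT libraries (SD, n = 3 each), and the groups of this sum did not overlap. The lncRNA A930015D03Rik overlaps H2-T22, H2-T23 and H2-T24 on the other strand, with 42 counts over the KO and 35 over the WT libraries. Likewise 9330175E14Rik overlaps the 5′ end of Nlrc5 on the other strand, with 27 counts over the KO and 63 over the WT libraries (log2 fold change -1.39, edgeR quasi-likelihood adjusted p = 0.165). The 50-base words that Nlrc5 shares all occur in 9330175E14Rik. The sources used here do not say whether counting used strand.

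The rise on chromosome 17 was patchy along the sequence. Within 100 kb on either side of H2-T23, 10 genes were tested: 2 were called higher (H2-T23 and H2-T22), 1 lower (H2-T10), and 7 did not pass. The window was centred on H2-T23, so that gene is in it by choice. Over all tested genes 7.69% were called higher and 7.48% lower. H2-T24, 18.2 kb from H2-T23 between gene midpoints, was among the 7, as were Abcf1 (log2 fold change -0.16), Gnl1 (0.03) and Prr3 (-0.28). H2-T10, 87.4 kb away on the other side, was at 1.54 CPM in KO and 3.03 CPM in WT libraries (-0.97, edgeR quasi-likelihood adjusted p = 0.0330). Its call ended without KO library 1 or 3 or WT library 2 or 3 (adjusted p between 0.0980 and 0.134, edgeR quasi-likelihood test).

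**Figure D3:**
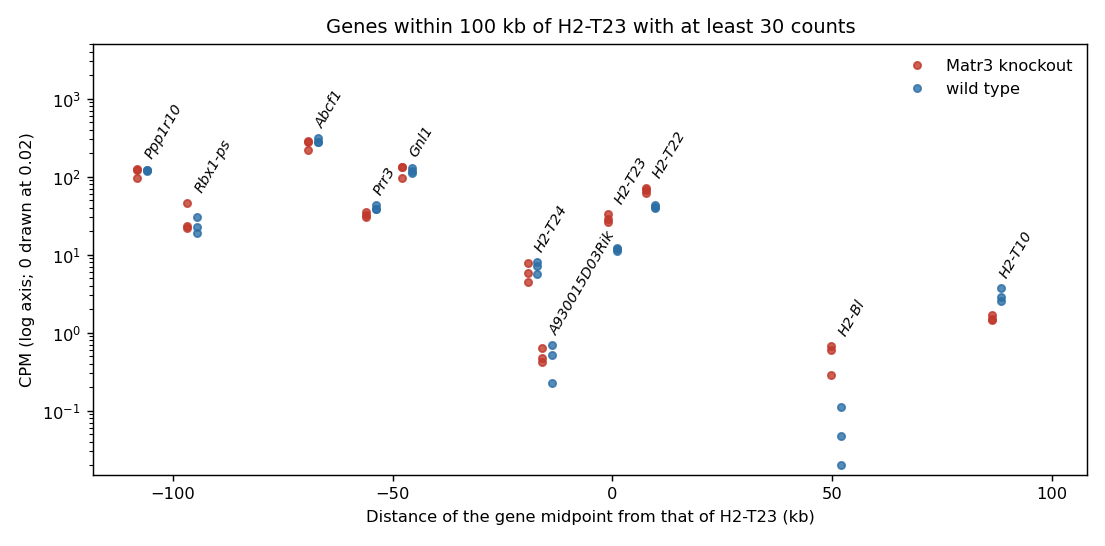
CPM (log axis) in each library of the genes within 100 kb of H2-T23 that have at least 30 counts, by distance between gene midpoints in kb, KO left of WT. H2-T23, H2-T22 and the sparsely counted H2-Bl lie higher in KO libraries, H2-T10 lies lower, and the other genes overlap or lie close.

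Of 19 genes of peptide generation and loading, 4 rose, 0 fell and the other 15 did not pass (edgeR quasi-likelihood test; median log2 fold change 0.13), where 7.69% of all tested genes were called higher and 7.48% lower. Without KO library 2 and WT library 1, 8 of them were called higher and 4 lower, in a test that called 7556 genes in all, against 2252 with every library. The peptide editors Tapbpl (1.07), at 12.9 ± 0.805 FPKM in KO and 6.10 ± 0.494 FPKM in WT libraries (SD, n = 3 each), and Tapbp (0.87) rose, as did the proteasome activator Psme2 (0.63) and the ER degradation factor Sel1l (0.56). In that order, edgeR quasi-likelihood adjusted p = 0.00103, 0.00669, 0.00673 and 0.0188. Sel1l lost its call without KO library 1 or WT library 2 or 3 (adjusted p between 0.0508 and 0.0637, edgeR quasi-likelihood test). The chaperone Pdia3 was at 328 ± 33.3 FPKM in KO and 378 ± 45.5 FPKM in WT libraries and did not pass. The transporter genes Tap1 (0.20) and Tap2 (0.32), named after their values were seen, did not pass either (edgeR quasi-likelihood adjusted p = 0.210 and 0.0723). Tap1 is a known target of NLRC5. At an unadjusted p under 0.05, edgeR had 7 of the 19 higher and 0 lower. Each of the other tools, which were DESeq2 and limma on voom weights or on FPKM, had 4 higher and 0 lower.

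Of 13 SXY module factors, which include the RFX subunits, Creb1, the NF-Y subunits and cofactors, 1 rose, Nfyb (log2 fold change 0.40, edgeR quasi-likelihood adjusted p = 0.0198), and 12 did not pass (median 0.07). That count is near the 7.69% of all tested genes called higher. With KO library 2 and WT library 1 left out, 5 were called higher and 1 lower. That fit called 7556 genes in all, against 2252 with every library. Nfyb was at 12.01 ± 0.683 FPKM in KO and 9.06 ± 0.428 FPKM in WT libraries (SD, n = 3 each), and its call ended without KO library 1 or 3 or WT library 2 or 3 (adjusted p between 0.0525 and 0.101, edgeR quasi-likelihood test). The methyltransferase gene Ehmt2 (0.18) did not pass, but was called higher without KO library 2 (edgeR quasi-likelihood adjusted p = 0.0246). At an unadjusted p under 0.05 edgeR had 3 higher and 1 lower. DESeq2 called 2 higher and 0 lower, and both limma fits 1 higher and 0 lower.

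Of 20 genes of the pathways that induce class I transcription, a list that also holds their feedback inhibitors Socs1 and Socs3, 4 rose, 0 fell and 16 did not pass (median 0.18). Of all tested genes, the background for this list and the next, 7.69% were called higher and 7.48% lower. Without KO library 2, 6 were called higher and 1 lower, in a fit that called 4295 genes in all. Without KO library 2 and WT library 1, 10 were higher and 2 lower, among 7556 genes called, against 2252 with every library. The 4 that rose were the transcription factors Irf7 (1.31), Irf1 (0.62) and Relb (0.68) and the kinase Tyk2 (0.50), with edgeR quasi-likelihood adjusted p = 0.00825, 0.00733, 0.00862 and 0.0319. Tyk2 lost its call without KO library 1 or 3 or WT library 2 or 3 (adjusted p between 0.0727 and 0.119, edgeR quasi-likelihood test). The TNF receptor Tnfrsf1a (0.22) did not pass, and was called higher without KO library 2 (edgeR quasi-likelihood adjusted p = 0.0403). At an unadjusted p under 0.05 edgeR had 6 higher and 1 lower, and DESeq2 and both limma fits each called 4 higher and 0 lower. Among 24 other class I and class I-like genes found in the table, 8 were tested, of which 2 rose and H2-T10 fell (median -0.02). Leaving out KO library 2 and WT library 1 gave 4 higher and 2 lower, in the fit with 7556 genes called. Fcgrt, the heavy chain of the neonatal Fc receptor, was at 15.4 ± 2.70 FPKM in KO and 9.73 ± 0.283 FPKM in WT libraries (0.65, edgeR quasi-likelihood adjusted p = 0.0165). Hfe, which limits cellular iron uptake, was at 5.17 ± 0.846 FPKM in KO and 3.42 ± 0.344 FPKM in WT libraries (0.59, edgeR quasi-likelihood adjusted p = 0.0302). Both products pair with beta-2-microglobulin. Fcgrt lost its call without KO library 3 or WT library 2 or 3 (adjusted p between 0.0519 and 0.0729, edgeR quasi-likelihood test). Hfe lost it without any library but KO library 2 (0.0539 to 0.0833) and by limma on log2(FPKM + 1) (0.0501). Procr, the receptor of activated protein C, did not pass (-0.06). H2-K2, a class I gene that is not on the list, was tested and did not pass (-0.44, edgeR quasi-likelihood adjusted p = 0.418).

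**Figure D4:**
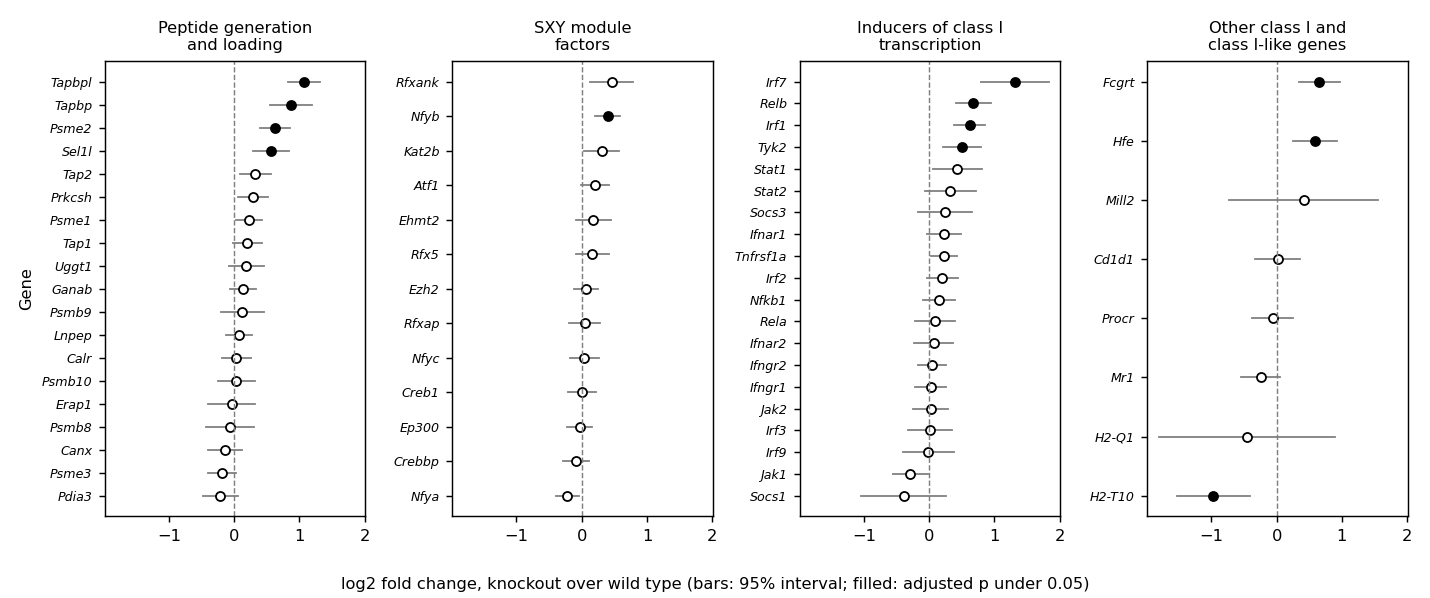
Log2 fold change, KO over WT, with 95% intervals for the tested genes of 4 lists around class I expression, the inducers including the inhibitors Socs1 and Socs3; filled points passed an adjusted p of 0.05. In the first 3 panels 4 of 19, 1 of 13 and 4 of 20 genes lie above 0 and passed, and in the last panel Fcgrt and Hfe passed above 0 and H2-T10 below it. Over all tested genes 7.69% were called higher and 7.48% lower.

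Some genes followed the members over the 6 libraries, by the root mean square difference between log2 CPM profiles, each centred on its own mean, searched over the 9914 protein-coding genes whose mean reached 5 CPM. Dock4 (0.242), Sytl5 (0.247) and Zfp239 (0.248) were nearest to Nlrc5. For H2-T23 the nearest were Tgfbi (0.0981), Cdhr1 (0.102) and Gsta4 (0.104), for H2-K1 Pmm1 (0.0179), Mrps31 (0.0193) and Cst3 (0.0210), and for B2m Uchl5 (0.0298), Jmy (0.0345) and Skp1 (0.0380). With 3 libraries a group, the difference between the groups is part of this likeness. No other member was among the 3 genes nearest to any of these 4 members.

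Matr3 itself was at 79.1 CPM in KO and 129 CPM in WT libraries (log2 fold change -0.71, edgeR quasi-likelihood adjusted p = 0.00270), so its mRNA was lower but present in the libraries labelled KO. Libraries held 20736570 to 30794032 counts. Markers of other cell types were low, as were those of hepatocytes. The 13 hepatocyte and hepatoma markers summed to 9.40 to 13.5 FPKM in KO and 10.8 to 11.6 in WT libraries. Among them Foxa2 was at 7.98 FPKM in KO and 7.45 in WT libraries. The summed FPKM of 11 leukocyte markers was 9.96 to 12.7 in KO and 8.31 to 9.45 in WT libraries, nearly all of it Cd68, with Cd3e, Itgam and Lyz2 at 0 counts in every library. Among 6 endothelial markers, 0.206 to 0.316 FPKM in KO and 0.633 to 0.821 in WT libraries in sum, Cdh5 fell (log2 fold change -2.27, edgeR quasi-likelihood adjusted p = 0.00413). Among 7 stellate or fibroblast markers, 7.32 to 9.22 FPKM in KO and 5.51 to 6.22 in WT libraries in sum, Col1a1 (0.81) and Des (0.58) rose and Pdgfrb (-1.39) fell. Their part in the class I values was not tested.

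**Figure D5:**
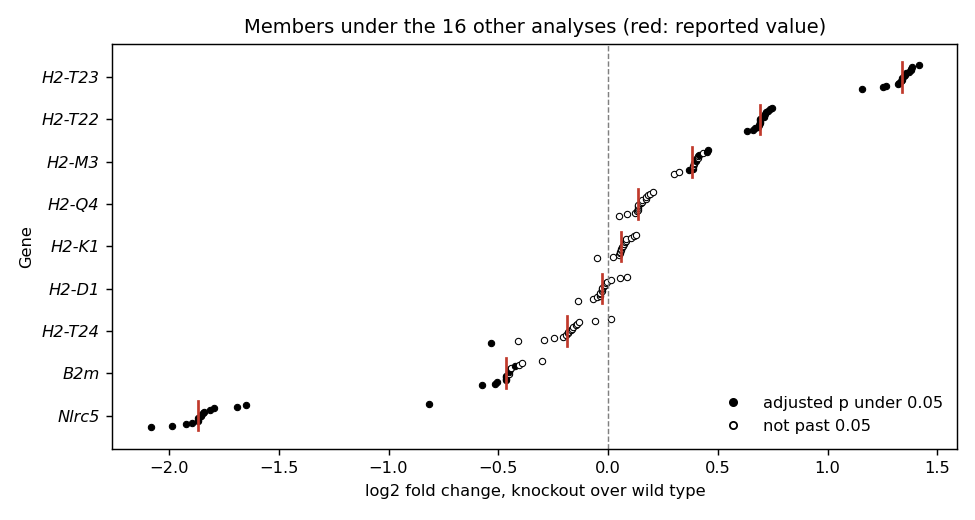
Log2 fold change, KO over WT, of the 9 genes under the 16 other analyses (points, filled where the adjusted p passed 0.05) and as reported (red line). All points of H2-T23, H2-T22 and Nlrc5 are filled, while H2-M3 and B2m have filled and open points.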

How the data were processed

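RNA-seq covered 3 libraries of Hepa1-6 with Matr3 knocked out and 3 of the wild type; groups and replicate numbers come from the sample titles. Per the file headers, the authors deposited 1 table with raw counts and FPKM per gene and library, and a mean signal per group, log2 fold changes and p-values of their own comparison. Counts were used as deposited. FPKM served for levels between genes. The gene length column, in another unit, gave the lengths behind FPKM. The sources used here do not give the aligner, counter and annotation. GRCm38 and mm10 stand in the submitters' processing notes, but 0 of the 9 members have the coordinates of GENCODE M21 on GRCm38, so gene coordinates are those of the table, whose build is uncertain; only promoter windows are GRCm38.p6. The 159 unannotated rows, 0.242% of counts, stayed in.

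The count test was that of edgeR 4.0.16 under R 4.3.3 (filterByExpr, TMM, quasi-likelihood F test, no covariate) over 14842 genes, with Benjamini-Hochberg adjusted p under 0.05. Standard errors follow from the F statistic and 95% intervals from its degrees of freedom. The script was tested on simulated counts. Alternatives used DESeq2 1.42.0, limma 3.58.1, other scalings, filters and library sets, and the replicate number. Members and lists were chosen with earlier results of these data known. Beside the members, the rule named, from each list, up to 6 genes that passed, by smallest p, and up to 3 that did not, by highest FPKM; of those that did not pass only 1 per list is given, a reduction made after values had been seen. Intervals rest on the spread between the libraries.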

Additional observations from a re-analysis of the deposited data

Results flagged for a closer look

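H2-Bl, a class I gene of the T region annotated as a polymorphic pseudogene 50.9 kb from H2-T23, was below the expression filter and outside the tests. It had 42 counts over the KO libraries (14, 9 and 19), against 4 over the WT libraries (1, 3 and 0), a signal above that of the controls. With no filter on low counts, its log2 fold change was 3.20 (SE 0.943, edgeR quasi-likelihood adjusted p = 0.0105). In that fit p-values rest on a spread pooled over genes, so this one does not measure the spread of H2-Bl alone. The gene was also flagged from these same counts. It lies on the side of H2-T23 where H2-T22 lies, and the share of its reads that come from near-identical copies was not tested.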

How the results depend on the processing

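Over the 16 other analyses, H2-T23, H2-T22 and Nlrc5 kept their direction and their call. H2-M3 was called in 9 and B2m in 10 of the 16. The number of genes called, 2252, ranged from 807 to 4295 when 1 library was left out, and was 7556 without KO library 2 and WT library 1. Members called lower, 2 as reported, ranged from 1 to 2 when 1 library was left out, were 3 without KO library 2 and WT library 1, and were 1 by limma on log2(FPKM + 1) and 1 after removal of the GC and length trend, an analysis added after seeing the data. Members called higher stayed between 2 and 3 in these analyses. Some uncalled values changed sign: the log2 fold change of H2-K1 was -0.0512 with that trend removed; that of H2-D1 was 0.0144 with no filter on low counts, 0.0562 without KO library 2 and WT library 1, and from -0.0669 to 0.0855 with 1 library left out, the highest without KO library 2; that of H2-T24 was 0.0144 without KO library 1 and from -0.4094 to 0.0144 with 1 library left out, and it was called at -0.5323 without KO library 2 and WT library 1. Procr was at 0.0801 without KO library 2, 0.0018 without WT library 1 and 0.1194 without both, and from -0.1135 to 0.0801 with 1 library left out. Pvr was at -0.0243, -0.0333 and -0.111 in the same analyses, -0.0088 with the trend removed, and from -0.0333 to 0.1073 with 1 library left out. Why these values moved was not tested. The deviations of same-numbered libraries from their group means correlated at 0.174, -0.0316 and -0.203 for numbers 1 to 3. With 3 libraries a group, these values cannot show whether the numbers pair libraries, and the labels do not say. With the replicate number as a block 1599 genes were called, H2-M3 (adjusted p = 0.0915) and H2-T10 (0.0634) lost their call, and H2-T23 (log2 fold change 1.33), H2-T22, B2m and Nlrc5 kept theirs. Nlrc5, with 76 to 139 counts per KO library, and H2-T24 had the fewest counts of the members.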

Other observations

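Of 8 tested ligands of natural killer cell receptors, 1 fell and 7 did not pass (edgeR quasi-likelihood test; at an unadjusted p under 0.05, 2 higher and 1 lower; DESeq2 called 1 higher and 1 lower, and both limma fits 0 higher and 1 lower). Over all tested genes 15.2% were called in either direction. Without KO library 2 and WT library 1, 2 of the 8 were called higher and 2 lower. That fit called 7556 genes in all, against 2252 with every library. Nectin2, a ligand of the receptors DNAM-1 and TIGIT, was at 6.71 ± 1.14 FPKM in KO and 10.07 ± 0.971 FPKM in WT libraries (SD, n = 3 each; log2 fold change -0.60, edgeR quasi-likelihood adjusted p = 0.0287). Its call ended without any library but KO library 2 (adjusted p between 0.0525 and 0.110, edgeR quasi-likelihood test). Pvr, a ligand of the same receptors, did not pass (0.03).

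Among 7 tested genes of the NLR family, to which Nlrc5 belongs, Nlrx1, a mitochondrial regulator of antiviral signalling, rose (log2 fold change 1.07, edgeR quasi-likelihood adjusted p = 0.0146), Nlrc5 fell and 5 did not pass. Over all tested genes 7.69% were called higher and 7.48% lower. The call of Nlrx1 ended without KO library 1 or 3 or WT library 2 or 3 (adjusted p between 0.0550 and 0.0679, edgeR quasi-likelihood test). Nlrc3, the highest member of the family, was at 2.54 ± 0.468 FPKM in KO and 2.95 ± 0.464 FPKM in WT libraries (SD, n = 3 each) and did not pass. Ciita, the class II counterpart of Nlrc5, had 6 counts over the KO and 4 over the WT libraries. Of 11 class II genes 2 were tested and 0 passed (edgeR quasi-likelihood test, 0 at an unadjusted p under 0.05, and 0 by DESeq2 and both limma fits), but 1 was called lower without KO library 2 and WT library 1. That fit called 7556 genes in all, against 2252 with every library. Cd74, the class II invariant chain, was at 5.24 ± 0.341 FPKM in KO and 6.25 ± 0.598 FPKM in WT libraries (SD, n = 3 each).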
